A study of Mus musculus with 6 samples.

Results

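Cyclins and their kinases were compared here between knockout and control cell suspensions of the mouse testis. The set holds 53 genes chosen by name from the deposited table of 54532 genes, and all 53 were found. They are 23 cyclins, 16 cyclin-dependent kinases (CDKs), 6 CDK inhibitors, 3 CDC25 phosphatases, 3 kinases of the WEE1 family and 2 CKS subunits. The study sequenced RNA from testis cell suspensions that the labels call STRA8+, in 3 knockout libraries and 3 control libraries. The knockout is labelled as conditional, and the control genotype is given only as Cre. The labels state neither the deleted gene, the promoter that drives Cre, nor the age of the mice. The title names BCAS2 and hnRNPH1, both of which act in splicing, and concerns meiotic prophase I. Nothing in the labels says that the 3 libraries of a group came from separate animals, so p-values measure the spread between libraries. The extraction protocol speaks of retinas, whereas every other label names testis.

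A cyclin binds a CDK and switches it on. The A, B, D and E type cyclins and CDK1, CDK2, CDK4 and CDK6 drive the cell through G1, S phase and division. WEE1 and MYT1 kinases hold CDK1 inactive, CDC25 phosphatases release it, inhibitors of the INK4 and CIP/KIP families block the kinases, and CKS subunits help CDKs bind their substrates. Some of the other cyclins and CDKs act on RNA polymerase II. In the mouse testis, spermatogonia divide by mitosis with the same machinery as other cells, and spermatocytes then enter a long prophase in which CDK2 sits at telomeres and crossover sites. The germ cell cyclin A1, the chaperone HSPA2 and CKS2 are needed in the mouse for male germ cells to complete the first meiotic division.

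The libraries held 14770320 to 15204127 reads in the knockout and 14532453 to 16963019 in the controls. Values are FPKM (fragments per kilobase of gene and 1000000 fragments), in which the deposited scaling lowers knockout values against control values. The median gene stood at a log2 fold change of -0.41 as deposited, and 3 other scalings raised that median by 0.83 to 1.12. Directions below are therefore given with the number of scalings they hold under. Fold changes, SE and adjusted p belong to the deposited scaling unless another is named. Bcas2 stood at 4.85 ± 0.515 FPKM in the knockout and 19.9 ± 0.586 FPKM in controls (SD, n = 3 each), and Hnrnph1 at 140.1 ± 14.0 FPKM in the knockout and 63.8 ± 3.26 FPKM in controls. The defining marker Stra8 was present in every library, at 125, 137 and 136 FPKM in the knockout and 11.5, 22.6 and 17.0 FPKM in controls. Markers of other stages moved with the groups. The 12 spermatogonial markers summed to 587 to 708 FPKM in the knockout and 79.5 to 128 FPKM in controls. The 12 markers of pachytene and diplotene spermatocytes summed to 53.3 to 75.8 FPKM in the knockout and 5813 to 7022 FPKM in controls. The 12 spermatid markers summed to 2.71 to 7.11 FPKM in the knockout and 19112 to 22237 FPKM in controls, although the label names STRA8+ cells. The 14 Sertoli cell markers summed to 797 to 1311 FPKM in the knockout and 218 to 418 FPKM in controls. Every spermatocyte and spermatid marker was lower in the knockout. In bulk samples such as these, fewer cells of a type and less RNA per cell cannot be told apart, and the part of these shifts in any result below was not tested.

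RNA for cyclins A2, B3, D1 and D2, CDK4, CDK5, Cdkn2a and Cks1b was higher in knockout cells, and RNA for cyclins A1, B2, D3 and K, Cdkn2c, Cdkn3 and Pkmyt1 was lower. Of 52 cyclin, CDK and regulator genes tested (limma on log2(FPKM + 0.5), Benjamini-Hochberg adjusted p of 0.05), 24 were higher in the knockout, 19 were lower and 9 passed in neither direction. Those 9, Cdk1, Cdk2, Cdk10, Cdk13, Cdk16, Ccnc, Ccnh, Ccny and Wee1, were all called higher under each of 3 other scalings. Those scalings raised the median of all genes by 0.83 to 1.12, which moves genes with small changes upwards in general. The matching share among all genes was not counted, so this is not a trait of the 9. As deposited, 46.2% of the 52 were higher and 36.5% lower, against 36.2% higher and 50.4% lower among all 16791 genes tested. The median log2 fold change of the 52 genes was 0.16, and that of all genes was -0.41. Changes whose absolute log2 fold change reached 2 were found in 6 genes upwards and 7 downwards, while 4.63% of all genes passed upwards and 30.9% downwards. The 6 were Ccna2, Ccnb3, Ccnd1, Ccnj, Cdk5 and Cdkn2a. The 7 were Ccna1, Ccnb2, Ccnd3, Ccnk, Cdk20, Cdkn2c and Cdkn3. All 24 genes called higher were higher under all 4 scalings. Among all genes, 6075 were called higher as deposited and 6074 of these (36.2% of all genes) under all 4. The 3 other scalings raise knockout values against control values. A call of higher as deposited could therefore hardly be lost under them, and its holding adds no support. Of the 19 called lower, 11 were lower under all 4 scalings. Another 2 kept their sign but were not called in each, and 6 changed sign. Among all genes, 8462 were called lower as deposited and 5746 (34.2% of all genes) under all 4. A change of sign between scalings was found for 9 of the 52 genes and 17.5% of all genes. The FPKM sum scaling called 37 of the genes higher and 12 lower, against 54.2% and 36.2% of all genes. The read sum scaling called 36 higher and 13 lower, against 50.6% and 38.9%, and quantile normalization 36 higher and 12 lower, against 52.1% and 36.8%. The 3 knockout libraries all lay above the 3 control libraries for 26 of the 53 genes and below them for 20, and the groups overlapped for 7. The background for that count was 36.9% of genes above and 51.1% below. Wee2, the oocyte relative of WEE1, was the gene too low to test, with 69 reads over the knockout libraries and 10 over the control libraries.

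**Figure D1:**
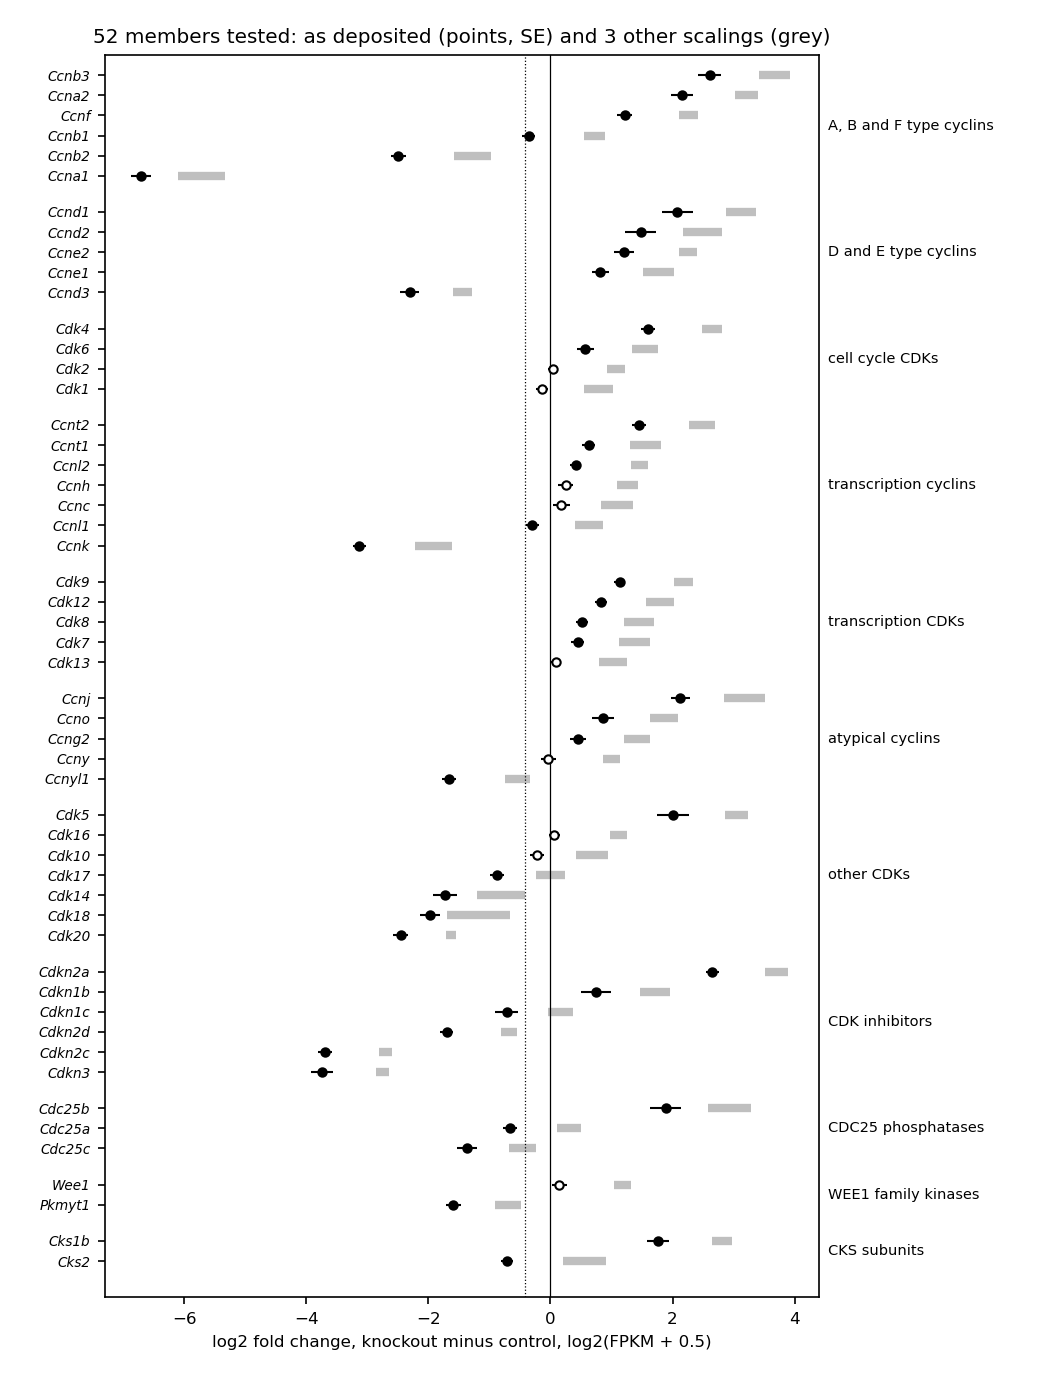
Log2 fold change on the log2(FPKM + 0.5) scale, knockout minus control, for the 52 tested genes grouped by role. Points with bars are values as deposited ± SE, filled where called by limma and open where not, grey bars span the 3 other scalings, and the dotted line marks the median of all genes at -0.41. Values run down to -6.71 for Ccna1 and up to 2.65 for Cdkn2a, and most grey bars lie to the right of their points.

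Of the 6 cyclins of the A, B and F types, 3 were higher and 3 lower in the knockout, against 36.2% and 50.4% of all genes. The A type cyclins exchanged places. Ccna1 encodes cyclin A1, which is restricted to germ cells and needed for spermatocytes to leave prophase in the mouse. The gene (ENSMUSG00000027793, mm10 chromosome 3 at 55045469 to 55055501, minus strand) was at 0.504, 0.889 and 0.789 FPKM in knockout cells and 152, 108 and 125 FPKM in control cells. All knockout values were below 1 FPKM, and the group means were 177-fold apart. The log2 fold change was -6.71 ± 0.167 (SE, limma adjusted p = 8.2e-09), resting on 83 reads in the knockout and 8234 in controls, and it was -6.10 to -5.33 under the other scalings. Ccna2 encodes cyclin A2, the partner of CDK2 and CDK1 in S phase and early mitosis. Its gene (ENSMUSG00000027715, mm10 chromosome 3 at 36564865 to 36572150, minus strand) had 19.5, 24.5 and 25.8 FPKM across the knockout and 3.68, 5.13 and 5.80 FPKM across the controls. The groups were far apart, with a log2 fold change of 2.16 ± 0.177 (limma adjusted p = 8.8e-06), and the direction held under all 4 scalings. Within each library, the ratio of Ccna1 to Ccna2 was 0.0258, 0.0363 and 0.0306 in the knockout and 41.2, 21.1 and 21.5 in controls. Such a ratio is not moved by a scaling that multiplies a library by 1 factor, whereas quantile normalization can move it. Ccna1 made up 2.99 ± 0.496% of the A type cyclin FPKM in the knockout and 96.2 ± 1.22% in controls. An antisense RNA that shares 185 exon bases with Ccna1 stood at 0.0658 FPKM in the knockout and 6.26 FPKM in controls. Ccna2 shares 510 exon bases with Exosc9 on the opposite strand, which stood at 7.91 FPKM in the knockout and 8.51 FPKM in controls. That is above every control value of Ccna2, and the part of such overlap in the Ccna2 values was not tested.

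The 3 B type cyclins moved apart. Cyclins B1 and B2 activate CDK1 at entry into division, and cyclin B3 appears early in mouse meiotic prophase. Ccnb2 (ENSMUSG00000032218, mm10 chromosome 9 at 70407692 to 70421547, minus strand) was at 24.9, 30.9 and 31.4 FPKM in knockout cells and 189.5, 151 and 157 FPKM in control cells. It fell in the knockout by 5.70-fold, with a log2 fold change of -2.49 ± 0.129 (limma adjusted p = 5.6e-07), and was lower under all 4 scalings. Ccnb3 (ENSMUSG00000051592, mm10 chromosome X at 6979652 to 7041619, minus strand) had 15.4, 17.0 and 12.9 FPKM across the knockout and 1.57, 2.75 and 1.96 FPKM across the controls. It was higher in the knockout under all 4 scalings, with a log2 fold change of 2.61 ± 0.187 as deposited (limma adjusted p = 4e-06). Ccnb1 was at 28.6, 31.7 and 33.2 FPKM in knockout cells and 44.9, 37.7 and 37.4 FPKM in control cells. These groups did not overlap but lay close together. As deposited, Ccnb1 in the knockout fell by 0.35 ± 0.107 (log2, limma adjusted p = 0.014). The sign turned under the other scalings, which gave 0.83, 0.56 and 0.89, and the call was lost without knockout replicate 1 (adjusted p = 0.0504). Within libraries the ratio of Ccnb1 to Ccnb2 was 1.15, 1.03 and 1.05 in the knockout and 0.237, 0.249 and 0.239 in controls. Ccnb1 exceeded Ccnb2 in all 3 knockout libraries and was exceeded by it in all 3 controls. The ratio of Ccnb3 to Ccnb1 was 0.538, 0.537 and 0.389 in the knockout and 0.0350, 0.0731 and 0.0523 in controls. Of the B type FPKM, Ccnb3 made up 20.1 ± 3.06% in the knockout and 1.03 ± 0.387% in controls. Pseudogene copies of Ccnb1 and Ccnb2 were listed at means of 0.806 and 1.28 FPKM in the knockout, and 1.01 and 1.31 FPKM in controls. Ccnf, the F-box cyclin that acts in a ubiquitin ligase, had 24.8, 24.8 and 32.0 FPKM in the knockout and 12.0, 11.1 and 11.0 FPKM in controls. It rose by 1.21 ± 0.120 as deposited (log2, limma adjusted p = 2.7e-05) and by 2.11 to 2.41 under the other scalings.

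**Figure D2:**
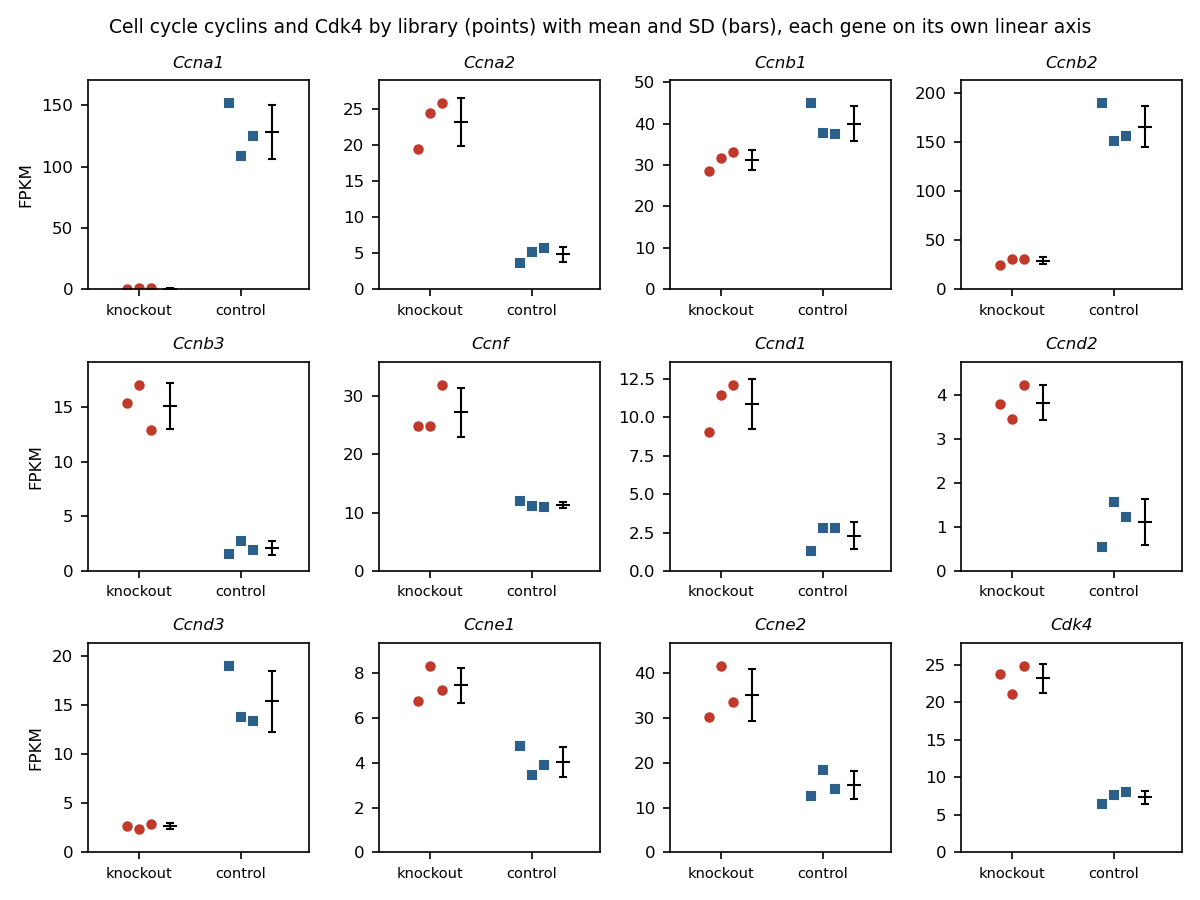
FPKM of A, B, F, D and E type cyclins and Cdk4 in each library, 1 panel per gene with its own axis from 0, with knockout circles left of control squares and bars for the mean ± SD. Ccna1, Ccnb2 and Ccnd3 sit low in the knockout, Ccna2, Ccnb3, Ccnd1 and Ccne2 sit high, and the Ccnb1 groups lie close together.

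Promoter sequences are shown for the B type cyclins, cyclin A1 and the CKS pair, because members of 1 small family moved in different directions as deposited. The signs of Ccnb1 and Cks2 depended on the scaling. RefSeq windows (GRCm38.p6, 250 bases before to 50 after the start, 300 bases) matched 41 of the 53 genes. Motif letters were searched on both strands and are in capitals. They are the CHR element TTTGAA, a cell cycle element found in promoters of G2 and M phase genes, the CCAAT box, bound by NF-Y, and the MYB core CAGTTG. The spelled motifs overlap none of each other in the windows printed here. Positions give the first base of a match counted from the start site, and the sequences read 5′ to 3′ on the strand of the gene.
Ccna1, chr3:55055006-55055305, minus strand: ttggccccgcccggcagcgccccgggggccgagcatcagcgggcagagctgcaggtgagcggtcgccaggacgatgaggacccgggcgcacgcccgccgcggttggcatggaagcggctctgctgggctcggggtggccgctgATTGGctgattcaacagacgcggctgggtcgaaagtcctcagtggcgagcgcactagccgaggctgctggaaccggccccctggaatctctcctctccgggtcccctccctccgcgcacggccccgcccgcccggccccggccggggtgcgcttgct
Ccnb1, chr13:100786437-100786736, minus strand: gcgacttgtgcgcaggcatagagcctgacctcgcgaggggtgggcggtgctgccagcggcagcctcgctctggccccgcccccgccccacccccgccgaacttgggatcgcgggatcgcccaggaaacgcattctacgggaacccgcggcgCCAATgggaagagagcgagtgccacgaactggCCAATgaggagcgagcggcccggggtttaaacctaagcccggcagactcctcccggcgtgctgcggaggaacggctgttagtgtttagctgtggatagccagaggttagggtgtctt
Ccnb2, chr9:70421505-70421804, minus strand: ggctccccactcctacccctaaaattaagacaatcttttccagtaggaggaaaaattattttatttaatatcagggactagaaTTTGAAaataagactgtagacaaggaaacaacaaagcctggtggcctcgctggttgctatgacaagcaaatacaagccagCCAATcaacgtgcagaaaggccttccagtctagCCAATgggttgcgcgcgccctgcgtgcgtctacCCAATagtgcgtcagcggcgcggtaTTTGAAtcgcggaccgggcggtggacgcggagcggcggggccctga
Ccnb3, chrX:7041570-7041869, minus strand: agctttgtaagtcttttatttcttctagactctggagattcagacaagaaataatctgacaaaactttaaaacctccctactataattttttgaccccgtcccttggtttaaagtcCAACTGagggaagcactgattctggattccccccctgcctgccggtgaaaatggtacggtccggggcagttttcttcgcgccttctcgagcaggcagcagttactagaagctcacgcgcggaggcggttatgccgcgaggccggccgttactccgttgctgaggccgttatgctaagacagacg
Cks1b, chr3:89418242-89418541, minus strand: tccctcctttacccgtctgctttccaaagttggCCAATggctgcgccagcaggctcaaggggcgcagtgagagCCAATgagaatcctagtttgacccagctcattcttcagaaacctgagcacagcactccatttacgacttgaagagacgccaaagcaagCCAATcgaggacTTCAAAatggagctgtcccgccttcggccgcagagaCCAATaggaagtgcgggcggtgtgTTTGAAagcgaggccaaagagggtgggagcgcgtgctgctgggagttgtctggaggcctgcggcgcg
Cks2, chr13:51644982-51645281, plus strand: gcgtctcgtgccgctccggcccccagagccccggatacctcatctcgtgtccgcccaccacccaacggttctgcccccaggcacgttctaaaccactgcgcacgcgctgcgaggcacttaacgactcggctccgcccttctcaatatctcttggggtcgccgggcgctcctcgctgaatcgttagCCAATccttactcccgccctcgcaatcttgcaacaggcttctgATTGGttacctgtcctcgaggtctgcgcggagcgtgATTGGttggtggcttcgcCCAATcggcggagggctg

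The Ccnb2 window held CCAAT boxes at -87, -54 and -21 and CHR letters at -167 and 4. The Ccnb1 window held CCAAT boxes at -99 and -67. Ccna1 had 1 CCAAT box, at -107, and Ccnb3 had the MYB core letters at -134. Cks1b held 4 CCAAT boxes and 2 CHR elements, and Cks2 held 4 CCAAT boxes. Among the 41 matched genes, 27 had a CCAAT box, 6 a CHR element and 4 the MYB core. In all 32851 promoter windows, 37.4% had a CCAAT box, 17.9% a CHR element and 13.7% the MYB core. The E2F-like letters TTTNNCGC were in 5 of the 41 and 5.17% of all windows, and the cAMP response element TGACGTCA in 1 of the 41 and 1.79% of all. A CCAAT box was in 9 of 19 matched genes that rose under all 4 scalings and in 9 of 10 that fell under all 4. The 41 genes had 45 windows, and a gene counted if any of its windows held the letters, whereas the background counts single windows. Ccnd3 and Cdkn2c, which fell, and Cdkn2a, which rose, each also had a window without the CCAAT box. These matches describe letters and not bound sites.

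The D type cyclins, which pair with CDK4 and CDK6 to release cells from G1, differed in make-up between the groups. Of the 5 D and E type cyclins, 4 were higher and 1 lower in the knockout, against 36.2% and 50.4% of all genes. The D type summed level as deposited was 17.4 ± 1.85 FPKM in the knockout and 18.8 ± 1.75 FPKM in controls (SD, n = 3 each). Ccnd1 (ENSMUSG00000070348, mm10 chromosome 7 at 144929931 to 144939925) had 9.05, 11.4 and 12.1 FPKM across the knockout and 1.27, 2.76 and 2.81 FPKM across the controls. Ccnd2, the D cyclin of differentiating spermatogonia in the mouse, was at 3.81, 3.45 and 4.23 FPKM in knockout cells and 0.551, 1.57 and 1.22 FPKM in control cells. Both rose, Ccnd1 by 2.08 ± 0.254 (log2, limma adjusted p = 9.6e-05) and Ccnd2 by 1.48 ± 0.251 (limma adjusted p = 0.00068). Ccnd3 (ENSMUSG00000034165, mm10 chromosome 17 at 47505051 to 47599691) had 2.73, 2.37 and 2.92 FPKM across the knockout and 18.9, 13.8 and 13.4 FPKM across the controls. It fell by 5.75-fold, a log2 fold change of -2.31 ± 0.156 (limma adjusted p = 2.8e-06), and all 3 D cyclin directions held under the 4 scalings. Ccnd1 made up 62.4 ± 4.14% of D type FPKM in the knockout and 12.5 ± 5.54% in controls, whereas Ccnd3 made up 15.5 ± 1.93% in the knockout and 81.4 ± 8.52% in controls. The ratio of Ccnd1 to Ccnd2 was 2.38, 3.32 and 2.86 in the knockout and 2.31, 1.76 and 2.31 in controls. The ratio of Ccnd3 to Ccnd2 was 0.718, 0.686 and 0.690 in the knockout and 34.4, 8.78 and 11.0 in controls, so Ccnd2 exceeded Ccnd3 in every knockout library and Ccnd3 exceeded Ccnd2 in every control library. The Sertoli and spermatogonial marker sums both differed in the same direction as Ccnd1 and Ccnd2, and their part was not tested. Control replicate 1 had the lowest Ccnd1 and Ccnd2, and the lowest Sertoli (218 FPKM) and spermatogonial (79.5 FPKM) marker sums of the controls. Across the knockout libraries in order, the Sertoli sum was 1311, 916 and 797 FPKM. The spermatogonial sum was 587, 602 and 708 FPKM. Ccnd1 shares 1100 exon bases with Oraov1 on the opposite strand, which stood at 2.67 FPKM in the knockout and 2.51 FPKM in controls.

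The E type cyclins, which activate CDK2 at the start of S phase, both rose under all 4 scalings. Ccne2 was at 30.4, 41.6 and 33.6 FPKM in knockout cells and 12.7, 18.5 and 14.1 FPKM in control cells, a log2 fold change of 1.20 ± 0.168 (limma adjusted p = 0.00021). Ccne1 had 6.79, 8.32 and 7.27 FPKM across the knockout and 4.75, 3.46 and 3.90 FPKM across the controls, a log2 fold change of 0.82 ± 0.142 (limma adjusted p = 0.0008). Their within-library ratio was the single one among 18 gene pairs whose groups overlapped, at 4.47, 5.0 and 4.62 in the knockout and 2.66, 5.34 and 3.61 in controls (exact two-sided permutation p = 0.4). Ccne2 shares 609 exon bases with Ints8 on the opposite strand, which stood at 15.3 FPKM in the knockout and 7.0 FPKM in controls.

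Of the 4 cell cycle kinases, Cdk4 and Cdk6 were higher in the knockout, and Cdk1 and Cdk2 passed in neither direction as deposited. The shares of all genes were 36.2% higher and 50.4% lower. Cdk1, the kinase of mitotic and meiotic division, was at 9.47, 10.1 and 10.2 FPKM in knockout cells and 11.5, 10.1 and 11.2 FPKM in control cells, with a log2 difference of -0.13 ± 0.0973 (limma adjusted p = 0.22). Cdk2 had 18.4, 17.8 and 17.9 FPKM across the knockout and 17.3, 16.9 and 18.2 FPKM across the controls, with a log2 difference of 0.04 ± 0.0826 (limma adjusted p = 0.64). The ratio of Cdk1 to Cdk2 was 0.516, 0.568 and 0.571 in the knockout and 0.668, 0.597 and 0.616 in controls. Both genes were called higher under each of the 3 other scalings. Cdk4 (ENSMUSG00000006728, mm10 chromosome 10 at 127063534 to 127067920) was at 23.8, 21.1 and 24.8 FPKM in knockout cells and 6.41, 7.61 and 8.02 FPKM in control cells. Cdk4 rose by 1.60 ± 0.117 (log2, limma adjusted p = 4.5e-06). Cdk6 was at 2.96, 3.26 and 3.82 FPKM in knockout cells and 2.06, 2.20 and 1.99 FPKM in control cells, and rose by 0.57 ± 0.136 (limma adjusted p = 0.0045). The rises of Cdk4 and Cdk6 held under all 4 scalings. Cdk4 shares 641 exon bases with Tspan31 on the opposite strand, which stood at 3.75 FPKM in the knockout and 2.40 FPKM in controls. The ratio of Cdk6 to Cdk4 was 0.124, 0.155 and 0.154 in the knockout and 0.321, 0.289 and 0.248 in controls, so Cdk4 exceeded Cdk6 in every library, by more in the knockout.

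Among cyclins of transcription, Ccnk fell while the gene of its partner CDK12 rose. CCNK activates CDK12 and CDK13, which phosphorylate the tail of RNA polymerase II and sustain transcription of long genes. Ccnk (ENSMUSG00000021258, mm10 chromosome 12 at 108179579 to 108203359) had 28.1, 30.7 and 27.8 FPKM across the knockout and 286, 231 and 255 FPKM across the controls. It had the highest level of all 53 genes in controls and ranked 10 in the knockout. It fell by 8.92-fold, a log2 fold change of -3.13 ± 0.103 (limma adjusted p = 3.7e-08), with -2.22 to -1.61 under the other scalings. Cdk12 rose under all 4 scalings, with 12.0, 13.4 and 13.7 FPKM in knockout cells and 7.01, 7.40 and 6.98 FPKM in control cells, a log2 fold change of 0.83 ± 0.0975 (limma adjusted p = 7.8e-05). Cdk13 was at 12.0, 12.3 and 11.5 FPKM in knockout cells and 11.4, 11.3 and 11.0 FPKM in control cells, and did not pass as deposited (0.08 ± 0.0866 on the log2 scale, limma adjusted p = 0.38) but was called higher under the 3 other scalings. The ratio of Cdk12 to Cdk13 was 1.0, 1.09 and 1.19 in the knockout and 0.617, 0.655 and 0.634 in controls. Cdk12 and Cdk13 were nearly equal in knockout replicate 1, and Cdk13 was clearly the higher of the pair in the controls.

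Cdk9, Cdk7 and Cdk8, kinase genes of elongation, initiation and Mediator, were all higher in the knockout. Cdk19, a second Mediator kinase gene listed with the wider pathway, was at 8.65 ± 0.436 FPKM in the knockout and 21.0 ± 2.19 FPKM in controls. It fell by 1.23 as deposited (log2, limma adjusted p = 1.2e-05), and its call was lost under the FPKM sum. CDK9 with cyclin T1 or T2 forms the elongation factor P-TEFb. Cdk9 rose to 27.1 ± 1.27 FPKM in the knockout, against 12.1 ± 0.792 FPKM in controls (1.13 ± 0.0920 on the log2 scale, limma adjusted p = 8.2e-06). Ccnt2 was at 7.74, 8.25 and 8.73 FPKM in knockout cells and 2.39, 2.79 and 2.92 FPKM in control cells, and rose by 1.45 ± 0.118 (limma adjusted p = 8.5e-06). Ccnt1 had 8.36, 7.61 and 7.74 FPKM across the knockout and 4.65, 4.79 and 5.42 FPKM across the controls, and rose by 0.63 ± 0.108 (limma adjusted p = 0.00075). Both T cyclins and Cdk9 were higher under all 4 scalings. The ratio of Ccnt2 to Ccnt1 was 0.926, 1.08 and 1.13 in the knockout and 0.514, 0.583 and 0.538 in controls. Of the initiation pair, Cdk7 rose by 0.45, while Ccnh differed by 0.25 and did not pass (limma adjusted p = 0.094, but 0.0136 without knockout replicate 1). Of the Mediator pair, Cdk8 rose by 0.52, while Ccnc differed by 0.18 and did not pass (limma adjusted p = 0.26, but 0.0284 without control replicate 1). Ccnh and Ccnc were called higher under the 3 other scalings. The L cyclins bind CDK11 kinases and act in splicing. Ccnl2 was at 24.5, 26.6 and 29.2 FPKM in knockout cells and 20.1, 19.4 and 20.3 FPKM in control cells. It rose by 0.41 ± 0.0939 as deposited (limma adjusted p = 0.0035) and was higher under all 4 scalings. Ccnl1 had 11.2, 10.8 and 10.04 FPKM across the knockout and 14.4, 13.6 and 11.8 FPKM across the controls. It fell by 0.30 ± 0.107 as deposited (limma adjusted p = 0.029) but was higher under the 3 other scalings. The Ccnl1 call was lost without control replicate 1 (adjusted p = 0.0657), control replicate 2 (0.0751), knockout replicate 2 (0.0636) or knockout replicate 3 (0.101). The ratio of Ccnl1 to Ccnl2 was 0.457, 0.406 and 0.343 in the knockout and 0.717, 0.701 and 0.584 in controls. In counts as deposited, transcription cyclins gave 3 higher, 2 lower and 2 not called of 7. Transcription CDKs gave 4 higher, none lower and 1 not called of 5, and 36.2% of all genes were higher and 50.4% lower. Under each other scaling, 6 of the 7 cyclins were higher and 1 lower, and all 5 CDKs were higher. Shares of all genes there were 50.6% to 54.2% higher and 36.2% to 38.9% lower.

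**Figure D3:**
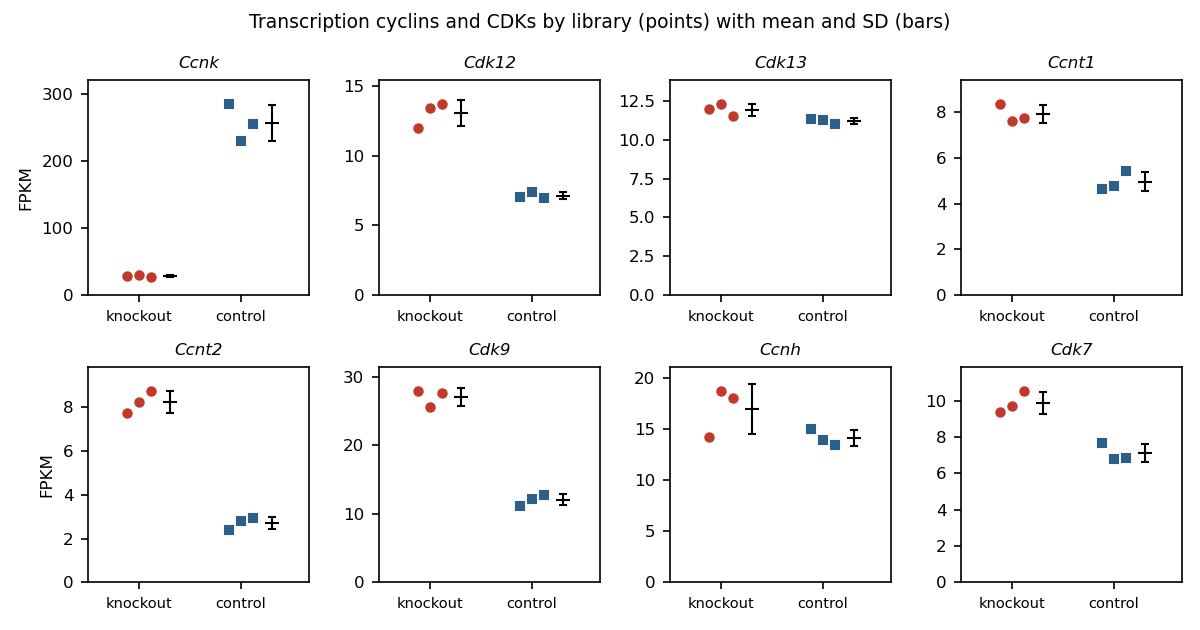
FPKM of 8 transcription cyclins and CDKs in each library, 1 panel per gene with its own axis from 0, with knockout circles left of control squares and bars for the mean ± SD. Ccnk lies near 29 FPKM in the knockout libraries and between 231 and 286 FPKM in controls, whereas Cdk9, Cdk12 and Ccnt2 lie higher in the knockout.

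Of the remaining cyclins and kinases, CDKs outside the cell cycle and transcription gave 1 higher, 4 lower and 2 not called of 7. The shares of all genes were 36.2% higher and 50.4% lower. Cdk5, a kinase best known from neurons, was at 25.3, 20.5 and 19.3 FPKM in knockout cells and 2.99, 6.07 and 6.74 FPKM in control cells. It rose by 2.01 ± 0.268 (log2, limma adjusted p = 0.00016) and was higher under all 4 scalings, with control replicate 1 again the lowest. Cdk20, a kinase of cilia, had 1.70, 1.60 and 1.32 FPKM across the knockout and 10.6, 9.84 and 11.7 FPKM across the controls. It fell by 2.46 ± 0.129 as deposited (log2, limma adjusted p = 6e-07). It was lower under all 4 scalings, with -1.72 to -1.55 under the other 3. An antisense RNA that shares 49 exon bases with Cdk20 stood at 0.258 FPKM in the knockout and 17.2 FPKM in controls, and strand handling is not given in the sources used here. Cdk18 stood at 0.291 ± 0.10 FPKM in the knockout and 2.60 ± 0.154 FPKM in controls (-1.98 on the log2 scale), and Cdk14 at 0.430 ± 0.0204 FPKM in the knockout and 2.64 ± 0.748 FPKM in controls (-1.73). Cdk18 was lower under all 4 scalings and Cdk14 under 3 of them, with the call lost under quantile normalization. Cdk17 was at 4.78, 4.66 and 4.79 FPKM in knockout cells and 10.3, 8.18 and 9.10 FPKM in control cells, and fell by 0.88 ± 0.115 as deposited (limma adjusted p = 0.00014). Under the other scalings it was 0.23, -0.03 and -0.24 and was not called. Its relative Cdk16, needed for sperm formation in the mouse, had 30.6, 26.4 and 29.7 FPKM across the knockout and 25.6, 28.1 and 29.1 FPKM across the controls and did not pass as deposited (0.06 ± 0.0965, limma adjusted p = 0.54) but was called higher under the 3 other scalings. The ratio of Cdk16 to Cdk17 was 6.41, 5.67 and 6.20 in the knockout and 2.48, 3.44 and 3.20 in controls. Cdk10, a kinase that partners cyclin M, differed by -0.22 ± 0.115 (limma adjusted p = 0.11) and was called higher under the 3 other scalings.

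Of 5 atypical cyclins, 3 were higher, 1 was lower and 1 was not called, beside 36.2% higher and 50.4% lower among all genes. The Y type cyclins bind CDK14 and CDK16. Ccnyl1 was at 21.5, 27.9 and 23.6 FPKM in knockout cells and 87.1, 75.2 and 71.8 FPKM in control cells. It fell by 1.66 ± 0.123 as deposited (log2, limma adjusted p = 4.8e-06). It was lower under all 4 scalings, with -0.75 to -0.34 under the other 3. An RNA on the opposite strand that shares 205 exon bases with it stood at 1.71 FPKM in the knockout and 41.6 FPKM in controls. Ccny had 26.1, 32.7 and 30.4 FPKM across the knockout and 34.3, 30.3 and 27.2 FPKM across the controls and did not pass as deposited (-0.04 ± 0.122, limma adjusted p = 0.77), with 1.14, 0.87 and 1.12 and a call of higher under the other scalings. The ratio of Ccnyl1 to Ccny was 0.824, 0.853 and 0.779 in the knockout and 2.54, 2.48 and 2.64 in controls, so Ccny exceeded Ccnyl1 in the knockout libraries and Ccnyl1 exceeded Ccny in the controls. Ccnj was at 4.93, 5.48 and 6.85 FPKM in knockout cells and 1.03, 0.891 and 0.839 FPKM in control cells. It rose by 2.13 ± 0.156 as deposited (log2, limma adjusted p = 4.5e-06) and was higher under all 4 scalings. Ccno, the cyclin of centriole amplification in ciliated cells, rose by 0.87 and Ccng2 by 0.45 as deposited. Both were higher under all 4 scalings. The Ccng2 call was lost without knockout replicate 2 (adjusted p = 0.0562).

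Of 6 CDK inhibitors tested, Cdkn1b and Cdkn2a were higher and Cdkn1c, Cdkn2c, Cdkn2d and Cdkn3 lower in the knockout. The shares of all genes were 36.2% higher and 50.4% lower. Cdkn2c and Cdkn2d encode INK4 inhibitors of CDK4 and CDK6 that are together needed for male fertility in the mouse. Cdkn2c (ENSMUSG00000028551, mm10 chromosome 4 at 109660876 to 109667189) had 5.32, 6.53 and 5.50 FPKM across the knockout and 86.5, 72.3 and 85.0 FPKM across the controls. It fell by 14.1-fold, a log2 fold change of -3.70 ± 0.115 (limma adjusted p = 2.7e-08). Cdkn2d was at 11.9, 13.9 and 11.3 FPKM in knockout cells and 44.2, 38.8 and 40.9 FPKM in control cells, and fell by 1.70 ± 0.106 (log2, limma adjusted p = 1.7e-06). Cdkn2a (ENSMUSG00000044303, mm10 chromosome 4 at 89274471 to 89294653, minus strand) had 31.2, 32.0 and 35.7 FPKM across the knockout and 4.33, 5.33 and 4.85 FPKM across the controls. It ranked 3 among the 53 genes in the knockout and 39 in controls, and its log2 fold change of 2.65 ± 0.109 (limma adjusted p = 1.3e-07) was the highest of the set as deposited, while Ccnb3 was slightly higher under the FPKM sum (3.92 for Ccnb3 and 3.90 for Cdkn2a) and under quantile normalization (3.75 and 3.71). The locus encodes INK4A, which inhibits CDK4 and CDK6, and ARF, which stabilises p53 by binding MDM2, and a value for the whole gene does not separate them. All 3 directions held under the 4 scalings. Of the FPKM summed over these 3 genes, Cdkn2a made up 64.5 ± 3.43% in the knockout and 3.83 ± 0.691% in controls, while Cdkn2c made up 11.3 ± 1.03% in the knockout and 63.7 ± 1.48% in controls. The ratio of Cdkn2d to Cdkn2c was 2.24, 2.12 and 2.06 in the knockout and 0.512, 0.536 and 0.481 in controls.

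Cdkn3 encodes a phosphatase that inactivates CDKs once their cyclin is gone. Cdkn3 was at 5.34, 8.0 and 5.36 FPKM in knockout cells and 107, 79.7 and 81.7 FPKM in control cells. It fell by 14.3-fold, a log2 fold change of -3.75 ± 0.180 (limma adjusted p = 3.5e-07), and was lower under all 4 scalings. The CIP/KIP inhibitor genes of this set, Cdkn1b and Cdkn1c, moved in opposite directions as deposited. Cdkn1a, a CIP/KIP gene listed with the wider pathway, rose by 0.44 ± 0.176 as deposited (log2, limma adjusted p = 0.044). It was higher under all 4 scalings. With 1 library left out its adjusted p reached 0.156. Cdkn1b, which encodes KIP1, had 3.59, 2.63 and 2.23 FPKM across the knockout and 0.897, 1.86 and 1.77 FPKM across the controls, and rose by 0.74 ± 0.249 (limma adjusted p = 0.022). Without control replicate 1 its adjusted p was 0.0541, and without knockout replicate 1 it was 0.0833. Cdkn1c was at 3.94, 2.74 and 3.27 FPKM in knockout cells and 7.28, 5.53 and 4.66 FPKM in control cells. It fell by 0.72 ± 0.188 as deposited (limma adjusted p = 0.0071) and was not called under the other scalings, which gave 0.37, 0.11 and -0.04.

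The CDC25 phosphatases remove the inhibitory phosphates that WEE1 and MYT1 place on CDKs. Cdc25b had 4.66, 4.61 and 4.44 FPKM across the knockout and 0.454, 0.837 and 1.52 FPKM across the controls. It rose by 1.89 ± 0.259 as deposited (log2, limma adjusted p = 0.00019) and was higher under all 4 scalings. Cdc25c was at 6.05, 7.10 and 7.54 FPKM in knockout cells and 23.4, 17.6 and 15.4 FPKM in control cells, a log2 fold change of -1.37 ± 0.165 (limma adjusted p = 8.7e-05) whose call was lost under the FPKM sum. Cdc25a had 10.8, 12.2 and 12.2 FPKM across the knockout and 20.8, 16.8 and 19.3 FPKM across the controls. It fell by 0.66 ± 0.111 as deposited (limma adjusted p = 0.00061) but was positive under the 3 other scalings. The ratio of Cdc25c to Cdc25a was 0.560, 0.580 and 0.620 in the knockout and 1.13, 1.05 and 0.799 in controls. Cdc25b made up 19.8 ± 1.69% of the CDC25 FPKM in the knockout and 2.54 ± 1.60% in controls. Control replicate 1 had the lowest Cdc25b, as it had the lowest Cdkn1b.

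Of the opposing kinases, Wee1 was at 26.7, 30.0 and 33.9 FPKM in knockout cells and 30.3, 24.5 and 27.0 FPKM in control cells and did not pass as deposited (0.14 ± 0.121, limma adjusted p = 0.29), with 1.33, 1.05 and 1.29 and a call of higher under the other scalings. Pkmyt1, the gene of the MYT1 kinase, had 4.73, 4.56 and 5.75 FPKM across the knockout and 17.8, 14.9 and 15.6 FPKM across the controls. It fell by 1.59 ± 0.124 as deposited (log2, limma adjusted p = 6.4e-06). It was lower under all 4 scalings, with -0.91 to -0.49 under the other 3. The ratio of Wee1 to Pkmyt1 was 5.65, 6.58 and 5.88 in the knockout and 1.70, 1.64 and 1.73 in controls, with no overlap between the groups. Wee2 was listed at 0.397, 0.220 and 0.431 FPKM in knockout cells and 0.0952, 0.0727 and 0.103 FPKM in control cells, all below the minimum used for testing.

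Of the CKS subunits, Cks1b rose, and the direction of Cks2 depended on the scaling. Cks1b, which helps the SKP2 ligase recognise KIP1, was at 26.0, 29.4 and 33.4 FPKM in knockout cells and 6.19, 9.60 and 9.73 FPKM in control cells. It rose by 1.76 ± 0.182 as deposited (log2, limma adjusted p = 3.5e-05) and was higher under all 4 scalings. Cks2, which mouse germ cells need to pass metaphase of the first meiotic division, had 77.8, 93.1 and 83.0 FPKM across the knockout and 135, 137 and 145 FPKM across the controls. It had the highest level of the 53 genes in the knockout. Cks2 fell by 0.71 ± 0.0942 as deposited (limma adjusted p = 0.00015) and was positive under the 3 other scalings. The ratio of Cks2 to Cks1b was 2.99, 3.16 and 2.48 in the knockout and 21.8, 14.2 and 14.9 in controls. Their promoter windows, printed above, each hold 4 CCAAT boxes.

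**Figure D4:**
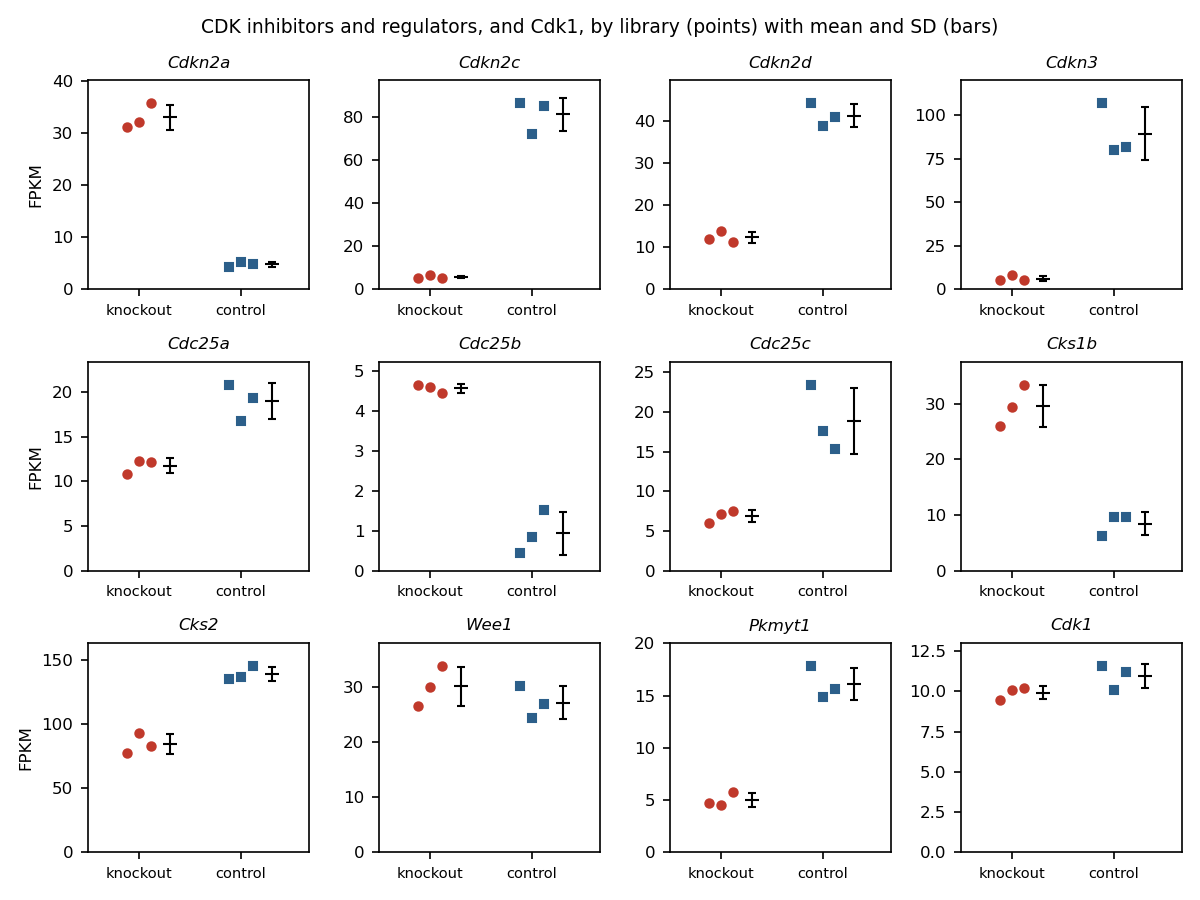
FPKM of Cdk1 and of INK4 inhibitors, Cdkn3, CDC25 phosphatases, Wee1, Pkmyt1 and CKS subunits in each library, 1 panel per gene with its own axis from 0, with knockout circles left of control squares and bars for the mean ± SD. Cdkn2a, Cdc25b and Cks1b lie higher in the knockout, Cdkn2c, Cdkn2d, Cdkn3 and Pkmyt1 lower, and Wee1 overlaps.

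Ratios between related genes inside 1 library, taken here from the deposited values, are not moved by scalings that multiply a library by 1 factor, which quantile normalization does not do. Of 18 pairs, the 3 knockout ratios and the 3 control ratios did not overlap for 17, and the order of the pair turned for 6. For single genes, the background was 36.9% above and 51.1% below without overlap, so separation of the groups was the rule for levels in general. The 6 were Ccna1 with Ccna2, Ccnb1 with Ccnb2, Ccnd3 with Ccnd2, Ccnyl1 with Ccny, Cdk12 with Cdk13 and Cdkn2d with Cdkn2c. Which gene of a pair has the higher FPKM also depends on the gene lengths used. Ratios near 1, as for Cdk12 with Cdk13 and Ccnb1 with Ccnb2 in the knockout, are therefore weak turns. How often the order turns in other gene pairs was not counted. The exact two-sided permutation p was 0.1 for each of the 17, the smallest that 3 against 3 libraries allow, and 0.106 after Benjamini-Hochberg adjustment over the 18. No pair could therefore pass 0.05, and the separation stands as a description of these 6 libraries.

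**Figure D5:**
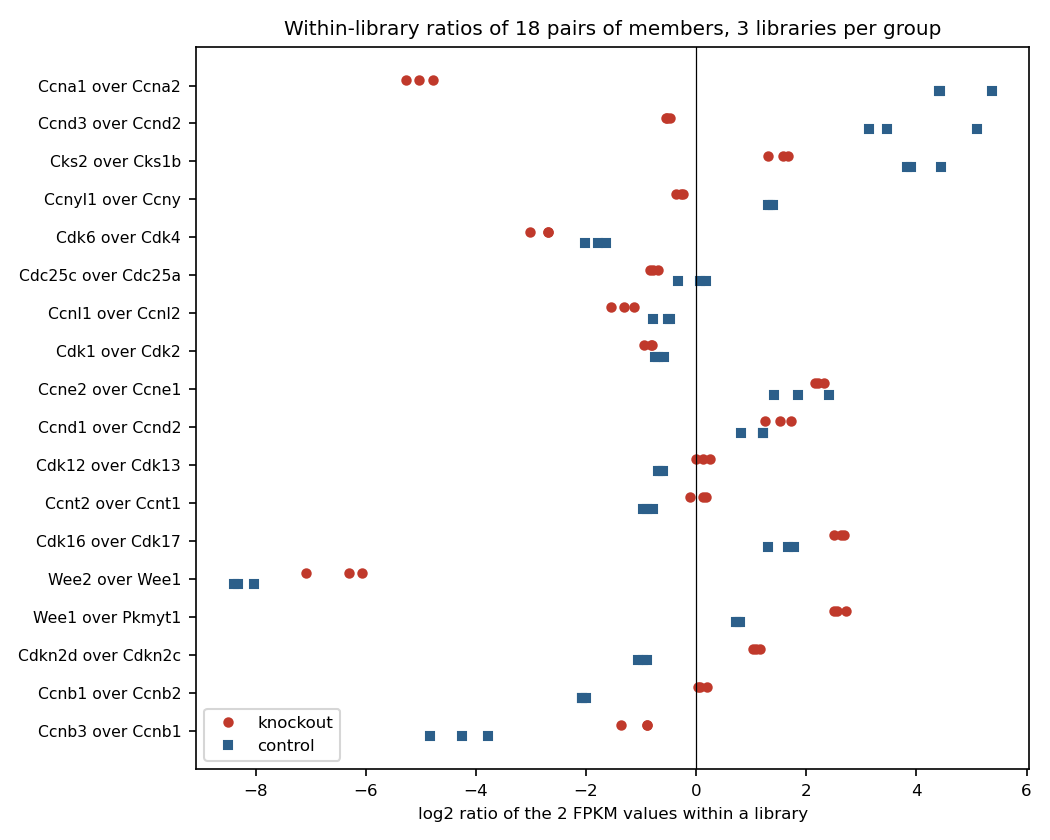
Log2 of the within-library ratio of FPKM for 18 gene pairs, with knockout circles drawn above control squares for each pair and 1 point per library. Knockout and control points are separate for every pair but Ccne2 with Ccne1, and the widest gap is that of Ccna1 with Ccna2.

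The wider pathway was described with 57 further genes, of which 53 were tested. In the knockout 24 were higher and 20 lower, against 36.2% higher and 50.4% lower among all genes tested. Their median log2 fold change was 0.21, against -0.41 for all genes. Under the other scalings 34 to 36 were higher and 10 to 16 lower, against 50.6% to 54.2% and 36.2% to 38.9% of all genes. Of 16 relatives and partners of the CDKs, 10 were higher and 5 lower as deposited. The other scalings gave 11 to 12 higher and 2 to 4 lower, beside the shares of all genes just given. Spdya, which encodes the telomere partner of CDK2 in meiosis, fell to 8.32 ± 1.78 FPKM in the knockout, against 56.3 ± 5.78 FPKM in controls (-2.70 ± 0.155, limma adjusted p = 1e-06). Cntd1, a cyclin-like crossover factor, fell by 2.55, while Cdk2ap2 rose by 2.13 and the atypical cyclin gene Ccng1 rose by 2.11, to 20.7 FPKM in the knockout, against 4.29 FPKM in controls.

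Of 18 genes of RB, E2F and G1 control, 9 were higher, 3 lower and 6 not called, beside 36.2% higher and 50.4% lower among all genes. E2f1, an activator of S phase genes, rose to 17.3 ± 2.28 FPKM in the knockout, against 3.0 ± 0.864 FPKM in controls (2.37 ± 0.201, limma adjusted p = 1.1e-05). Mycn rose by 2.30 and E2f3 by 1.94, and Skp2, the ligase subunit that removes KIP1, fell by 2.27. Of 19 genes of entry into and exit from M phase, 5 were higher, 12 lower and 2 not called, with a median log2 fold change of -1.09. Among all genes 36.2% were higher and 50.4% lower, with a median of -0.41. Under the other scalings 8 to 9 of the 19 were higher and 6 to 9 lower, against 50.6% to 54.2% and 36.2% to 38.9% of all genes. Hspa2, the chaperone that helps CDK1 bind cyclin B1 in mouse spermatocytes and also 1 of the 12 spermatocyte markers, fell to 38.4 ± 6.50 FPKM in the knockout, against 738 ± 51.1 FPKM in controls (-4.26 ± 0.134, limma adjusted p = 2.9e-08). The kinase gene Aurka fell by 2.77, and Fbxo43, an inhibitor of the anaphase-promoting complex in meiosis, fell by 3.52. Fbxo5, its counterpart in the mitotic cycle, rose by 2.29, to 13.5 FPKM in the knockout, against 2.37 FPKM in controls. Mybl1, a transcription factor of pachytene genes in the mouse, fell to 11.5 ± 1.65 FPKM in the knockout, against 26.4 ± 1.34 FPKM in controls (-1.18 ± 0.117, limma adjusted p = 2.8e-05), and its call did not hold under every scaling. Cdk19 and Cdkn1a aside, the other 12 pathway genes named here kept their direction and their call under all 4 scalings.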

How the data were processed

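RNA from mouse testis cells labelled STRA8+ was sequenced in 3 knockout and 3 control libraries, grouped by the sample titles. The submitters' processing notes name HISAT2 2.0.5 and the build mm10. How reads were assigned to genes, strands and repeated sequence is not given in the sources used, so overlapping genes and near-identical copies are uncertain. The authors deposited FPKM per gene. FPKM times gene length gave whole reads for 100% of nonzero values within 0.01 read. The divisor behind them was 1.37 to 1.42 times the recovered total in the knockout and 0.691 to 0.774 times in controls. The 16791 genes averaging 1 FPKM or more were tested on the log2(FPKM + 0.5) scale, knockout minus control, using limma 3.58.1 (R 4.3.3) with a mean-variance trend and Benjamini-Hochberg adjustment over all of them. Folds on this scale understate changes of low genes. The 3 other scalings rescaled FPKM or reads to sum to 1000000 per library, or used quantile normalization. The model was tested on data simulated from control means, with few genes changed, equally up and down, and without the deposited scaling. These data differ in both respects, so that test cannot show how the scaling or the many changed genes affect the calls. Replicates differed beyond counting error, with a chi-square per gene of 7.55 to 14.7, so each counted as 1 sample. Coordinates are 1-based.

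The genes and lists were chosen with earlier results of these data known. By rule, genes were given in full if called with a log2 fold change of 2 or more in size and 5 FPKM or more in the higher group, or if in a pair. Ccnf, Cdc25b, Cdkn1b and Cdkn1c were also given by library, to complete their families, after their values were seen. From each pathway list up to 4 called genes with the largest log2 fold changes and 5 FPKM or more in the higher group were named, whatever the size of the change, plus Hspa2, Spdya and Mybl1. Cdk19 and Cdkn1a were named as well, beside their relatives, after their values were seen. The other marker lists gave 1 higher and 4 lower of 6 Leydig genes, 5 higher of 9 macrophage genes (4 of these calls were lost when 1 library was left out, and the summed level was 376 FPKM in knockout replicate 1, against 111 and 142 FPKM in the other knockout libraries), none called of 4 peritubular genes, 1 lower of 3 red blood cell genes, and no endothelial gene that could be tested. Of the 12 spermatogonial markers, 11 were tested, with 9 higher and 1 lower.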

Additional observations from a re-analysis of the deposited data

How the results depend on the processing

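With FPKM rescaled to a common sum, 37 cyclin, CDK and regulator genes were higher and 12 lower; with quantile normalization 12 were lower. A 5 FPKM filter gave 3227 higher and 5320 lower of all genes, with fewer genes tested. Signs turned under the FPKM sum for Ccnb1 (0.83), Cdk1 (1.03), Ccnl1 (0.86), Ccny (1.14), Cdk10 (0.94), Cdk17 (0.23), Cdkn1c (0.37), Cdc25a (0.50) and Cks2 (0.47). They turned under the read sum for Ccnb1 (0.56), Cdk1 (0.74), Ccnl1 (0.58), Ccny (0.87), Cdk10 (0.65), Cdkn1c (0.11), Cdc25a (0.23) and Cks2 (0.20), and under quantile normalization for Ccnb1 (0.89), Cdk1 (0.54), Ccnl1 (0.41), Ccny (1.12), Cdk10 (0.42), Cdc25a (0.11) and Cks2 (0.91). Leaving out each library, Ccny ranged from -0.12 to 0.0485, turning without control replicate 1 (0.04) and knockout replicate 1. Leaving out 1 library at a time gave 23 to 24 genes higher and 18 to 19 lower, and 5618 to 6064 higher and 7860 to 8609 lower of all genes. Limma voom on the recovered reads gave 24 higher and 19 lower. It used the deposited divisors as library sizes and so kept the deposited scaling. The read sum scaling gave 36 higher and 13 lower. Equal replicate numbers did not pair the libraries, since their deviations correlated at -0.122, -0.0530 and -0.0400. With the replicate number as a block, 24 genes were higher and 19 lower, and 5930 and 8364 of all genes. Without a filter Wee2 had a log2 fold change of 0.52 (limma adjusted p = 0.014) on 69 reads in the knockout and 10 in controls.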
